A study of Mus musculus with 121 samples.

Results

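Cyp2b10, Cyp2b9 and Cyp2b13 are 3 cytochrome P450 genes of subfamily 2b, followed here in mouse liver. They were chosen by symbol, through the Ensembl identifiers of the liver count table, so the family makes up 3 of the 25759 genes of that table. The choice was made with earlier results of these data in view, among them the difference between knockout and wild-type livers and the change with a high-fat diet in wild-type livers. For these 3 genes those contrasts are therefore given as descriptions, with a size and a standard error and no test. Cyp2b23 (no liver read) and Cyp2b19 (6 liver reads in 5 libraries) are the other Cyp2b genes with a row in the table, so 5 in all.

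Cytochromes P450 of subfamily 2b are membrane enzymes of the hepatocyte endoplasmic reticulum that oxidise drugs, steroids and fatty acids, with electrons supplied by the reductase Por. Cyp2b10 is the standard reporter of CAR (gene Nr1i3), a nuclear receptor that is activated by phenobarbital and many other compounds, and its transcript is scarce in untreated mouse liver. Cyp2b9 and Cyp2b13 are known as female-biased liver genes that male growth hormone secretion keeps low.

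The livers came from C57BL/6 mice of 3 genotypes: wild type (WT), heterozygote (HET) and knockout (KO). The gene is written PEP in the labels and is taken here to be Pepd, which encodes the dipeptidase prolidase. Diets began at 8 weeks of age and lasted 18 weeks. The 75 liver libraries comprised 5 WT, 8 HET and 5 KO mice on standard chow (10% of calories from lipid), 8, 11 and 9 on the diet labelled HFD 45%, 5, 4 and 1 on the Control diet, and 6, 5 and 8 on the Alios diet. All groups share the strain, and the labels give neither the construct of the knockout nor the sex. The transcript of the Y-linked gene Ddx3y was found in every liver library, at 17.9 CPM (counts scaled to a common library total) or more. Each library carries the number of 1 mouse, so the replicates are mice.

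The values are read counts per gene, given here as CPM, with library totals adjusted by edgeR's TMM factors. Totals ran from 1027087 to 8854246 counts with a median of 3191160, apart from Alios KO library 8, which held 42692. Pepd stood at 0 to 3.06 CPM in the 23 KO libraries and at 15.4 to 64.3 CPM in 51 of the 52 WT and HET libraries. The exception is the library labelled HFD HET 8, with Pepd at 1.26 CPM, which goes against its label, and the Cyp2b contrasts, within-group relations and lists of most alike genes that include it are given with and without it. The hepatocyte markers measured (11 of 12 listed) summed to between 77340 and 178200 CPM in every liver library. In bulk tissue fewer cells of a type and less RNA per cell cannot be told apart.

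The 3 genes lie in a cluster on chromosome 7 of GRCm38, all on the plus strand. Cyp2b10 (ENSMUSG00000030483) spans 25897620 to 25926624, Cyp2b13 (ENSMUSG00000040583) 26061497 to 26096197 and Cyp2b9 (ENSMUSG00000040660) 26173411 to 26210661. The annotation places a processed pseudogene, Rnf170-ps, inside Cyp2b13. Pepd lies on the same chromosome, at 34912379 to 35044708, which puts Cyp2b9 8.70 Mb and Cyp2b10 8.99 Mb before its start.

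The stretches just upstream of the start sites are printed to compare the 3 genes, since Cyp2b10 followed one pattern in these livers and the other pair another. Capitals mark the bases at which Cyp2b9 and Cyp2b13 differ (the Cyp2b10 stretch has none). All are RefSeq sequence of GRCm38.p6, plus strand, 5′ to 3′. The Cyp2b10 stretch stops 38 bases before the RefSeq start site, where the gene begins in the annotation used for the coordinates above.
Cyp2b10, chr7:25897408-25897619: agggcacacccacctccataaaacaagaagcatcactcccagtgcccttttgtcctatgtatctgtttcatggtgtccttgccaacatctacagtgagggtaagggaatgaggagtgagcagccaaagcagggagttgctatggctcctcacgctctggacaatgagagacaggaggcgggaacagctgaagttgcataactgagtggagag
Cyp2b9, chr7:26173159-26173408: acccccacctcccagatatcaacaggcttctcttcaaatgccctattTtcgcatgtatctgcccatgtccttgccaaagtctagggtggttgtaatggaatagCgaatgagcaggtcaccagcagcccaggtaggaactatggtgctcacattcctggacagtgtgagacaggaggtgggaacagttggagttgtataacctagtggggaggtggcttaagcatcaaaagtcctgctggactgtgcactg
Cyp2b13, chr7:26061245-26061494: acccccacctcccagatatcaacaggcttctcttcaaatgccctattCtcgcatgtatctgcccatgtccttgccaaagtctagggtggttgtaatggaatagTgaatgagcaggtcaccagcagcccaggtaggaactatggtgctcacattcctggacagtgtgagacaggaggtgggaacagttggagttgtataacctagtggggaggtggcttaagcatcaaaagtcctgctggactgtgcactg
The 250 bases of Cyp2b9 and Cyp2b13 were identical at 248 positions (99.2%). Their differences, counted from 1 at the 5′ end with the Cyp2b9 base first, are T48C and C104T. Over the 250 bases before its RefSeq start site, Cyp2b10 matched each of them at 182 of the 240 aligned positions where both had a base (75.8%), with a gap at 20 more. The letters AGGTCA, the core motif of many nuclear receptors, stood 138 to 133 bases before the start site in both Cyp2b9 and Cyp2b13 and in neither direction in the Cyp2b10 window. Of 32851 windows of 250 bases before mouse genes, 14.0% held AGGTCA on either strand, so the match is a description and not a site. TTCNNNGAA, the STAT motif (in 7.02% of windows), DR4, a direct repeat of the first motif that contains it (0.0152%), and TATAAA (12.4%) had no match in any of the 3. The phenobarbital-responsive enhancer known for Cyp2b10 lies farther upstream than these windows reach.

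The transcripts are also close relatives, which limits how exactly reads of 50 bases can be assigned. At aligned positions where both had a base, the transcripts of Cyp2b9 and Cyp2b13 were 91.9% identical, those of Cyp2b10 and Cyp2b9 87.6% and those of Cyp2b10 and Cyp2b13 88.6%. Of all windows of 50 bases, 9.69% in Cyp2b10, 11.2% in Cyp2b9 and 27.3% in Cyp2b13 recur exactly in another gene. Cyp2b13 shares 198 windows with Cyp2b9 and 146 with Cyp2b10, while Cyp2b10 and Cyp2b9 share 10. The pseudogene Gm45225, which has no row in the table, shares 252 with Cyp2b13, 83 with Cyp2b10 and 70 with Cyp2b9. Within 2 mismatches of another Cyp2b transcript lay 39.0% of the windows of Cyp2b10, 45.3% of those of Cyp2b9 and 51.3% of those of Cyp2b13. How such reads were treated is not given in the sources used here, and Cyp2b13 has the largest share of such windows among the 3.

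Cyp2b10 was nearly silent in WT and HET livers and present in every KO liver. On chow the 5 WT libraries held 1.82, 2.06, 2.11, 4.98 and 5.87 CPM, and the 5 KO libraries held 15.1, 18.8, 20.5, 27.6 and 74.6 CPM. Each KO value exceeded each WT value, as it did for 1.14% of the 11064 genes tested in that contrast. The mean was 31.3 ± 24.6 CPM (SD, n = 5) against 3.36 ± 1.91 (n = 5), with an edgeR log2 difference of 3.37 ± 1.14 (SE), or 10.3-fold. The 8 chow HET libraries ran from 1.20 to 21.5 CPM with a median of 3.22, and library 8 alone exceeded 5.60. Only 2 of 5 KO libraries stood above that library, whose Pepd level of 23.2 CPM was within the HET range.

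On HFD the estimated gap was larger, and whether it differs between diets was not tested. The 8 WT libraries ran from 0 through a median of 1.30 to 2.84 CPM, and the 9 KO libraries from 20.4 through 73.9 to 169.7. The groups did not overlap, which held for 0.0723% of genes in this direction. The KO mean of 86.0 ± 48.1 CPM (n = 9) compared with 1.33 ± 0.892 CPM in WT (n = 8), a log2 difference of 5.94 ± 0.96, or 61.5-fold. KO libraries were higher on HFD than on chow by 1.36 ± 0.75 on the log2 scale, with 4 of the 9 HFD values above every chow value. WT libraries differed the other way, by -1.21 ± 1.56, a standard error larger than the difference.

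**Figure D1:**
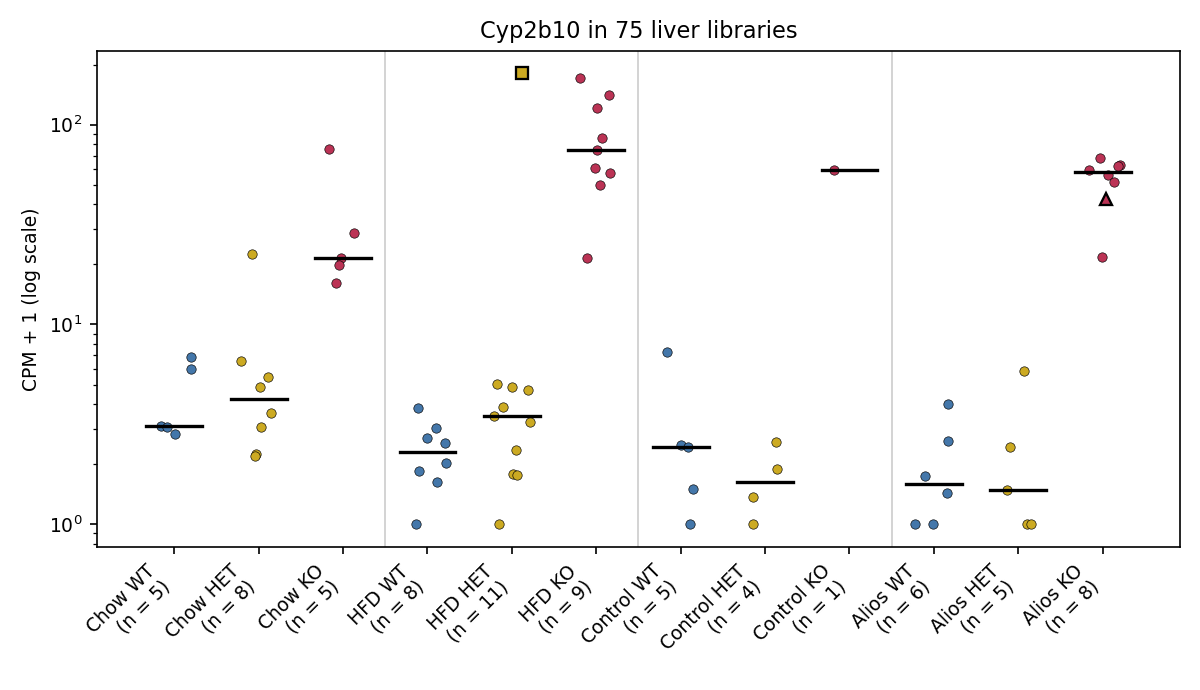
Cyp2b10 in the 75 liver libraries, as CPM + 1 on a log axis, by diet and genotype. Each point is a mouse and bars are group medians. The square is library HFD HET 8 at 179.8 CPM and the triangle Alios KO library 8, which rests on 2 reads. KO medians lie between 20.5 and 73.9 CPM and WT medians between 0.59 and 2.11.

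HET livers on HFD lay near the WT range in all but 1 library. Of the 11 libraries 10 ran from 0 to 4.05 CPM, with a mean of 2.21 ± 1.44. Library 8 stood at 179.8 CPM, above every other liver library. With that library the HET mean was 18.4 ± 53.6 CPM and the log2 difference from WT 3.22 ± 1.08, and without it the difference was 0.54. No KO library lay above library 8, and all 9 lay above the other 10.

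The Alios and Control diets gave the same picture. The 6 Alios WT libraries ran from 0 through 0.590 to 2.99 CPM and the 8 KO libraries from 20.8 through 56.7 to 66.8. Again the groups did not overlap (0.121% of the 11595 genes tested there), and the log2 difference was 5.57 ± 0.52, or 47.4-fold. KO library 8 contributes 41.6 CPM from 2 reads, with an exact 95% Poisson interval of 5.04 to 150.3 CPM that covers counting error only. Without it the KO mean went from 52.0 ± 14.8 to 53.4 ± 15.3 CPM (n = 7). The 5 Alios HET libraries held 0, 0, 0.484, 1.44 and 4.88 CPM, all below every KO library (0.25% of genes). On the Control diet the single KO library stood at 58.5 CPM (exact 95% Poisson interval 52.8 to 64.6). The 5 WT libraries there held 0, 0.505, 1.43, 1.48 and 6.25 CPM and the 4 HET libraries 0, 0.363, 0.886 and 1.58. With 1 KO mouse that comparison has no replicate check.

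Across diets, the 23 KO libraries ran from 15.1 to 169.7 CPM with a median of 58.0. Of the 51 WT and HET libraries other than HFD HET 8, 50 stood under 10 CPM, with a median of 1.57, and 8 had no read, which at their depths allows up to 0.594 to 2.77 CPM (3 reads). The ranges meet only at chow HET library 8: 18 of 23 KO libraries lay above it and 5 below. By median the order of the groups was HFD KO, Control KO, Alios KO, chow KO, then chow HET at 3.22 CPM and the others down to Alios HET at 0.484. Each group overlapped the next in this order.

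**Figure D2:**
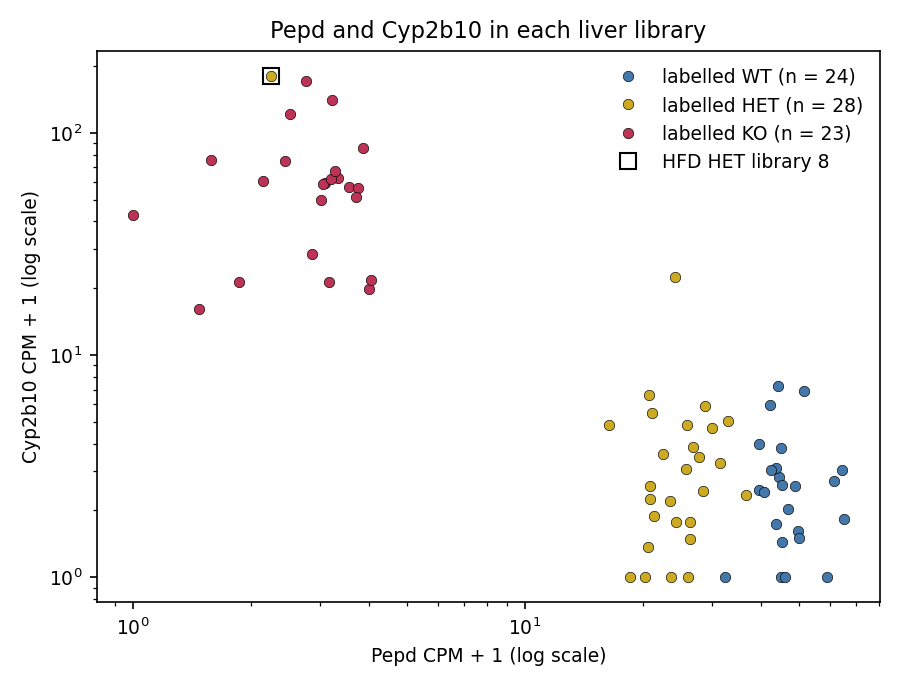
Pepd and Cyp2b10 in each liver library, both as CPM + 1 on log axes, coloured by labelled genotype. The 23 KO libraries sit at or under 3.06 CPM of Pepd and at or over 15.1 CPM of Cyp2b10. The library labelled HFD HET 8 (square outline, 1.26 and 179.8 CPM) sits within their Pepd range and above all of them in Cyp2b10.

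HFD HET library 8 also stood with the KO libraries in some other genes known as CAR targets, of which Slco1a4 was low. Cyp2c29, a P450 of arachidonic acid and drug oxidation, was at 4056 CPM there, against 277 to 1041 CPM in the other 10 HET libraries and 1536 to 4866 CPM in the 9 KO libraries. Cyp2c55 was at 22.6 CPM, against 0.921 to 4.27 in the other HET libraries and 2.31 to 25.2 in KO. Slco1a4, a transporter of organic anions, was at 35.8 CPM, below the 58.8 to 152.1 CPM of the other HET libraries and within the KO range of 19.8 to 82.6. Cyp2c50 was at 1169 CPM, above the other HET libraries (112.1 to 520.5) and the KO libraries (379.2 to 1082). The receptor gene Egfr (304.2 CPM), Nr1i3 (40.9) and Por (219.4) lay within both the other HET range and the KO range. Chow HET library 8, the other high Cyp2b10 value among HET livers, had Cyp2c29 at 1412 CPM, within the other chow HET libraries (874 to 1907), and Cyp2c55 at 25.7 CPM, above theirs (9.70 to 18.2). In that chow library Cyp2c50 was at 414.0 CPM, below the other chow HET libraries (466.8 to 1025.6). Slco1a4 was at 104.4 CPM there, within them (47.85 to 144.8). These genes were examined in the 2 libraries after their Cyp2b10 values had been seen.

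Cyp2b9 was at its highest on HFD, in all 3 genotypes. On chow the 5 WT libraries held 1.59, 1.81, 7.71, 37.3 and 48.8 CPM and the 5 KO libraries 0, 0, 0.746, 0.870 and 13.1. On HFD the 8 WT libraries ran from 14.7 through 203.1 to 337.1 CPM and the 9 KO libraries from 6.04 through 136.2 to 274.3. The level on HFD was thus above that on chow in both genotypes, by 9.22-fold in WT and 31.9-fold in KO (standard errors of 0.85 and 1.03 on the log2 scale), while WT and KO livers on HFD overlapped almost fully (log2 difference -0.45 ± 0.59). The diet contrast in HET livers, which are other mice than the WT and KO livers above, was tested. HET livers shared 1 estimate of the spread with those groups. Other earlier results in view at the choice may have included HET livers. The adjusted p values for the 3 genes are therefore not independent support. The 8 chow HET libraries ran from 0.826 through 4.47 to 43.3 CPM and the 11 HFD HET libraries from 35.6 through 261.4 to 411.4. Of the 11, 10 lay above every chow library. The mean rose from 8.67 ± 14.2 to 233.4 ± 118.1 CPM, 29.0-fold (log2 4.86 ± 0.74, edgeR adjusted p = 1.6e-05).

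Cyp2b13 rose with it at a lower level. The 8 chow HET libraries ran from 0 through 0.445 to 4.48 CPM, 3 of them with no read, and the 11 HFD HET libraries from 1.78 through 42.7 to 106.2. The increase was 44.7-fold (log2 5.48 ± 0.81, edgeR adjusted p = 1.1e-05), and 10 of 11 libraries again exceeded every chow library. In this contrast 14.2% of the 11064 genes tested were called at an adjusted p under 0.05, 6.97% as higher, so a call alone is common here. Cyp2b9 and Cyp2b13 passed in every alternative run, and without HFD HET library 8 their differences were 4.88 and 5.47 (edgeR adjusted p of 1.7e-05 and 1.4e-05). Cyp2b10 did not pass (log2 1.18 ± 0.81, edgeR adjusted p = 0.35), and without HFD HET library 8 its difference turned to -1.50 (edgeR adjusted p = 0.06).

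**Figure D3:**
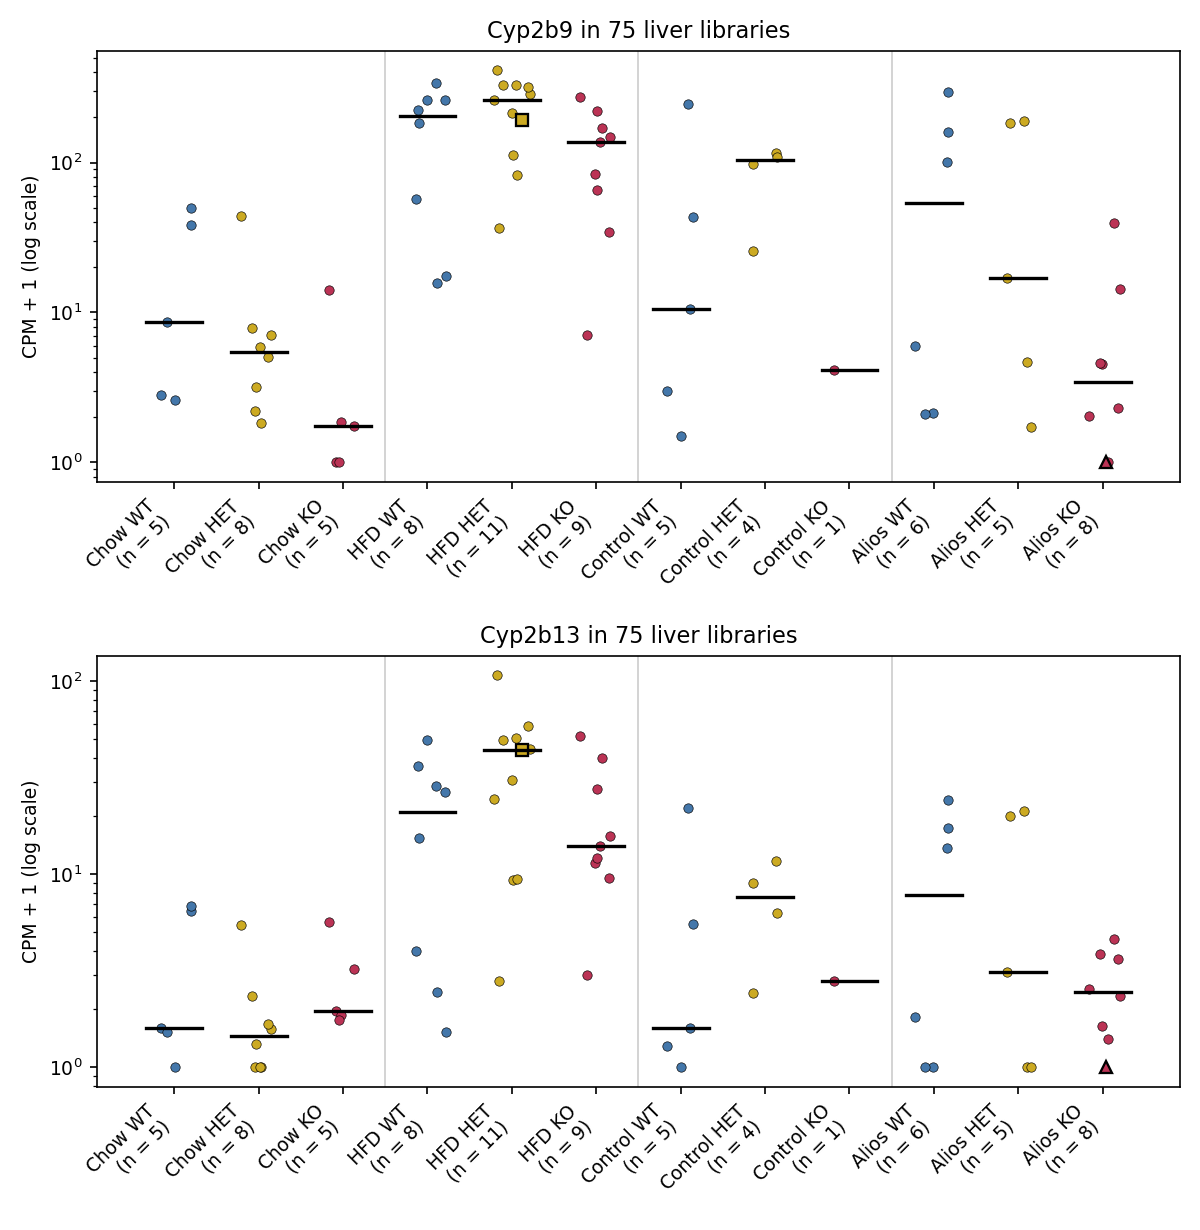
Cyp2b9 (top) and Cyp2b13 (bottom) in the 75 liver libraries, as CPM + 1 on log axes, by diet and genotype, with bars at group medians. The square is library HFD HET 8 and the triangle Alios KO library 8. For both genes the 3 HFD groups have the highest medians, 136.2 to 261.4 CPM for Cyp2b9 and 12.98 to 42.7 for Cyp2b13, and values within a group spread widely.

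The diet difference held within the mouse numbers of the 300s and of the 500s, ranges which may mark cohorts although the labels do not say so. HFD HET library 4 is numbered in neither range. It is left out of the values by range and forms a level of its own in the covariate fit. Among mice numbered in the 300s, Cyp2b9 ran from 0.826 to 6.86 CPM in 5 chow HET and from 112.2 to 411.4 in 6 HFD HET livers. Among those in the 500s it ran from 1.20 to 43.3 CPM in 3 chow HET and from 35.6 to 330.5 in 4 HFD HET livers, which overlap. With the range as a covariate Cyp2b9 rose by 4.79 on the log2 scale (edgeR adjusted p = 4.4e-05) and Cyp2b13 by 5.44 (edgeR adjusted p = 1.7e-05). Markers of other cells moved in the same contrast. The stellate cell markers summed to 315.5 to 535.2 CPM in chow HET and 453.9 to 834.3 in HFD HET livers, with 8 of 10 tested called higher (collagens among them) and 1 lower (Des). The sinusoidal endothelial markers summed to 384.5 to 474.4 and 484.2 to 581.4 CPM, with 4 of 10 higher (Stab2, Oit3, Lyve1 and Pecam1). Of 16 periportal hepatocyte genes 9 were lower and 1 higher, and their sums ran from 12970 to 21070 CPM on chow and from 9455 to 14460 on HFD. Of 7 skeletal muscle markers 4 were lower, with medians of 1.55 and 0.820 CPM and single libraries up to 1649 and 860.0. The part of these markers in the Cyp2b values was not tested.

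On the Alios diet Cyp2b9 was high in some WT and HET livers and low in the KO livers. The 6 WT libraries held 1.11, 1.15, 4.95, 99.97, 158.0 and 294.5 CPM, and the 5 HET libraries 0.717, 3.70, 16.0, 183.1 and 187.5. The 8 KO libraries ran from 0 through 2.43 to 38.2 CPM, so that 3 of 6 WT and 2 of 5 HET libraries exceeded every KO library. The log2 difference between KO and WT was -3.41 ± 1.14, or 10.6-fold lower. Cyp2b13 showed the same arrangement, with WT from 0 through 6.77 to 23.2 CPM and KO from 0 through 1.44 to 3.61 (log2 difference -2.32 ± 0.96). Alios KO library 8 had no read of either gene, at a depth where 2 reads of Cyp2b10 made 41.6 CPM. Its zeros therefore do not show a low level. Without it the KO libraries ran from 0 through 3.54 to 38.2 CPM for Cyp2b9 and from 0.395 through 1.54 to 3.61 for Cyp2b13. On the Control diet Cyp2b9 held 0.4935, 1.99, 9.55, 42.4 and 246.3 CPM in WT, 24.8, 97.2, 108.2 and 114.5 in HET, and 3.14 CPM (21 reads, exact Poisson interval 1.95 to 4.80) in the 1 KO library.

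KO livers were thus low in Cyp2b9 on chow, Control and Alios and high on HFD. The KO against WT difference was -2.25 ± 1.15 on chow, -0.45 ± 0.59 on HFD and -3.41 ± 1.14 on Alios, and whether these differ between diets was not tested. The chow value rests in part on KO library 4, at 13.1 CPM: without it the difference was -5.14. For Cyp2b13 the KO against WT difference was 0.03 ± 1.37 on chow and -0.13 ± 0.55 on HFD. By median both genes were highest in HFD HET, then HFD WT, then HFD KO. Cyp2b9 went on through Control HET, Alios WT, Alios HET, Control WT, chow WT, chow HET, Control KO and Alios KO to chow KO (0.746 CPM). Cyp2b13 went on through Alios WT, Control HET, Alios HET, Control KO, Alios KO, chow KO, chow WT and Control WT to chow HET (0.445 CPM). Each group overlapped the next in both orders.

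Alios against Control was the other contrast tested, in HET livers, and it showed no call for the family. Cyp2b10 differed by 0.93 ± 0.99 on the log2 scale (edgeR adjusted p = 0.78), Cyp2b9 by -0.04 ± 1.17 (adjusted p = 1.0) and Cyp2b13 by 0.49 ± 0.97 (adjusted p = 0.92), against 0.19% of 11595 genes called. With 5 and 4 mice the intervals are wide: for Cyp2b9 the approximate 95% interval runs from -2.33 to 2.25. All 4 Control HET mice are numbered in the 500s and 2 of the 5 Alios HET mice in the 400s, so diet and number are partly confounded here.

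Per length of transcript the 3 genes can be set side by side, as group medians of RPKM (CPM per kilobase of exon). HFD HET livers had medians of 139.3 for Cyp2b9, 22.8 for Cyp2b13 and 1.18 for Cyp2b10. In HFD KO livers they were 72.6, 6.92 and 35.0. In chow KO livers they were 0.397, 0.504 and 9.68 and in Alios KO livers 1.30, 0.767 and 26.8. By these levels Cyp2b10 led the family in KO livers on chow and Alios, and Cyp2b9 led it on HFD.

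Within groups Cyp2b9 and Cyp2b13 varied together from mouse to mouse. Over log2(CPM + 1), 18 relations were computed, 3 pairs in each of 6 groups of at least 6 mice, by 2-sided permutation with Benjamini-Hochberg adjustment over the 18. For Cyp2b9 with Cyp2b13 Pearson's r was 0.96 in HFD HET (n = 11, Spearman's rho 0.93, permutation p = 5e-05, adjusted p = 0.00045, and by rank 0.0015) and 0.93 in HFD KO (n = 9, rho 0.97, exact permutation p = 4.4e-05, adjusted p = 0.00045, and by rank 0.0015). In HFD WT r was 0.96 (n = 8, rho 0.79, exact permutation p = 0.0015, adjusted p = 0.0092). In chow HET r was 0.92 (n = 8, rho 0.81, exact permutation p = 0.0039, adjusted p = 0.014). By rank neither of the last pair passed (adjusted exact permutation p = 0.081 in each). In Alios WT the mice fell into a low and a high set of 3 each, so no r is given. In Alios KO r was 0.66 (n = 8, rho 0.73, exact permutation p = 0.077, adjusted p = 0.17, and by rank 0.087). Alios KO library 8, which had no read of either gene at its low depth, is among those 8.

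Leaving out the 2 mice farthest from the median of the gene on the x axis gave r of 0.90 in HFD HET, 0.85 in HFD KO, 0.92 in HFD WT and 0.65 in chow HET. Only HFD HET then kept an adjusted permutation p under 0.05 (0.034). The adjusted exact permutation p was 0.08 in HFD KO, 0.12 in HFD WT and 0.26 in chow HET, over 7, 6 and 6 mice. Without HFD HET library 8 alone, r in HFD HET was 0.98 (n = 10, adjusted permutation p = 0.00045). Over all mice of a group Cyp2b10 showed no relation past the threshold to either gene. Outside Alios WT its r with Cyp2b9 ran from 0.04 in Alios KO to 0.60 in HFD WT and its r with Cyp2b13 from 0.47 to 0.70, with adjusted permutation p of 0.14 or more. In HFD HET this turned on library 8. There r with Cyp2b9 was 0.33 with that library and 0.88 without it (n = 10, rho 0.67, permutation p = 0.0018, adjusted p = 0.0066, by rank 0.069). For Cyp2b13 r was 0.47 with it and 0.89 without (n = 10, rho 0.76, permutation p = 0.001, adjusted p = 0.0062, by rank 0.069). Without the 2 farthest mice r was 0.76 and 0.79 there, with adjusted exact permutation p of 0.08 in each. In HFD KO its r with Cyp2b9 was 0.55 and turned to -0.68 without the 2 farthest mice. The leaving out of library 8 was added after the data had been seen. The 3 genes share library totals and similar sequence, and the part of these in their common variation was not tested.

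**Figure D4:**
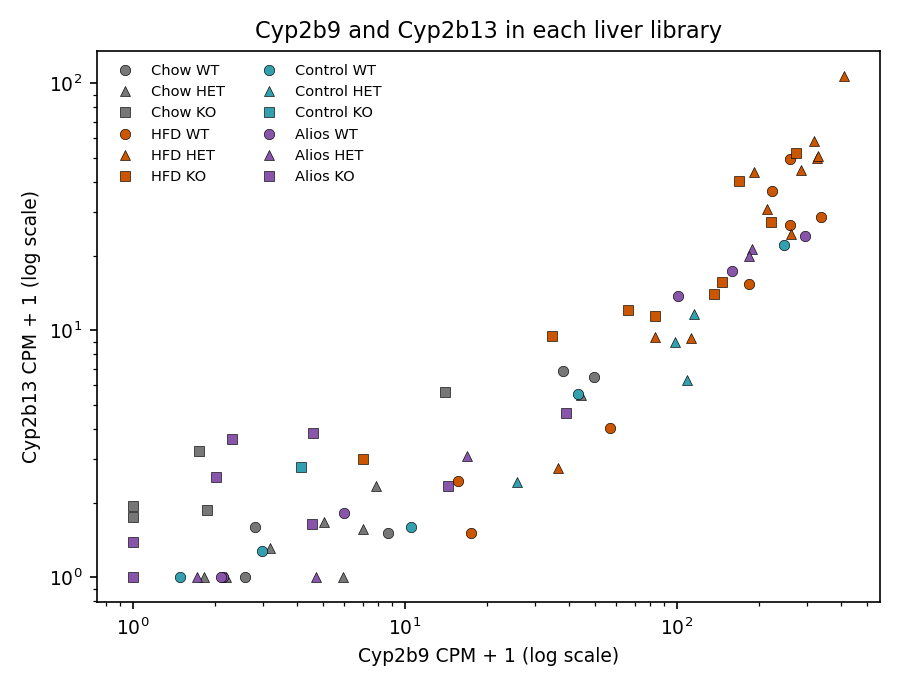
Cyp2b9 against Cyp2b13 in each of the 75 liver libraries, both as CPM + 1 on log axes. Colour gives the diet and symbol the genotype. HFD libraries fill the upper right, up to 411.4 and 106.2 CPM in the same HFD HET mouse.

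The genes around CAR were examined next, from lists that were drawn up with Cyp2b10, Cyp2c29 and Cyp2c55 already known to be high in KO livers. Of 20 CAR and PXR receptors, partners and regulators tested, 1 was higher and 0 lower in KO than in WT livers on HFD (1.72% of all genes were called), 0 on chow (3.4%) and 0 on Alios (0.224%) by edgeR. At an unadjusted edgeR p under 0.05, 1 was higher and 3 lower on chow, and 2 were higher and 0 lower on Alios. The share of all genes at that threshold is not given here. DESeq2 called 0 on either diet. Nr1i3 itself was at 35.5 ± 11.05 CPM in HFD KO (n = 9) and 42.4 ± 12.998 in WT (n = 8), with an edgeR adjusted p of 0.69, and at 24.6 ± 12.2 and 27.1 ± 13.4 CPM on Alios (edgeR adjusted p = 1.0). On chow it was at 28.6 ± 24.0 CPM in KO and 60.9 ± 18.0 in WT (log2 -0.99 ± 0.35, edgeR adjusted p = 0.095), with 4 of 5 KO libraries below every WT library. Nr1i2, which encodes PXR, and the reductase Por did not pass on any of the 3 diets. Alas1, the first enzyme of haem synthesis, did not pass either.

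Egfr, the receptor whose signalling is known to hold CAR inactive, was the regulator called on HFD. It was at 490.4 ± 217.9 CPM in KO and 183.9 ± 59.0 in WT (2.68-fold higher, edgeR adjusted p = 0.032), with 8 of 9 KO libraries above every WT library. On Alios it was at 583.3 ± 270.1 and 287.2 ± 159.8 CPM and did not pass (edgeR adjusted p = 0.2), nor did it on chow (edgeR adjusted p = 0.38).

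Of 37 CAR and PXR target genes outside Cyp2b that were tested, 3 were higher and 0 lower in KO livers on HFD, and 2 were higher and 1 lower on Alios, where 1.72% and 0.224% of all genes were called. On chow 0 were higher and 1 lower (3.4%). Cyp2c29 and Cyp2c55 are among the higher ones on HFD and Alios, and having been known beforehand they support nothing and are described with no test. The median log2 difference of the list was 0.03 on HFD, -0.08 on Alios and -0.24 on chow, where the medians of all genes were -0.002, -0.008 and 0.006. Cyp2c29 was at 3072 ± 1015 CPM in HFD KO and 598.1 ± 354.9 in WT (5.14-fold) and at 2801 ± 402.4 and 515.0 ± 236.7 CPM on Alios (5.44-fold). On chow it was at 1647 ± 897.7 and 1438 ± 218.1 CPM (log2 0.23 ± 0.47). Cyp2c55 was at 13.28 ± 7.379 CPM in HFD KO and 3.726 ± 1.295 in WT (3.45-fold). On Alios it was at 12.3 ± 4.144 and 3.173 ± 1.914 CPM (3.43-fold). Its chow means were 12.99 ± 10.76 CPM in KO and 12.99 ± 4.789 in WT (log2 0.151 ± 0.481). The HFD KO mean of Cyp2c55 thus lay near both chow means, and the HFD WT mean lay below them. Cyp2c50 was 2.45-fold higher on HFD (edgeR adjusted p = 0.04), a call lost with no filter on low counts and with only the groups compared (edgeR adjusted p of 0.052 and 0.068). The means of Cyp2c50 were 744.6 CPM in KO and 304.6 in WT on HFD, and 594.3 and 800.7 CPM on chow. Differences between diets in these KO against WT values were not tested.

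Slco1a4, listed with them as a gene that PXR and CAR activators raise, was lower in KO livers. It was 3.74-fold lower on Alios (19.5 ± 9.88 against 74.7 ± 25.8 CPM, edgeR adjusted p = 0.024, below every WT library in 8 of 8). On chow it was 2.60-fold lower (edgeR adjusted p = 0.024, 5 of 5). The share of all genes with KO wholly below WT is not given here. Wholly above WT stood 0.121% of genes on Alios and 1.14% on chow. The chow call was lost without KO library 2, KO library 5 or WT library 2 (edgeR adjusted p of 0.13, 0.051 and 0.077), and with only the groups compared (0.22). On HFD it was at 41.9 ± 20.1 and 66.2 ± 14.2 CPM and did not pass (edgeR adjusted p = 0.18).

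**Figure D5:**
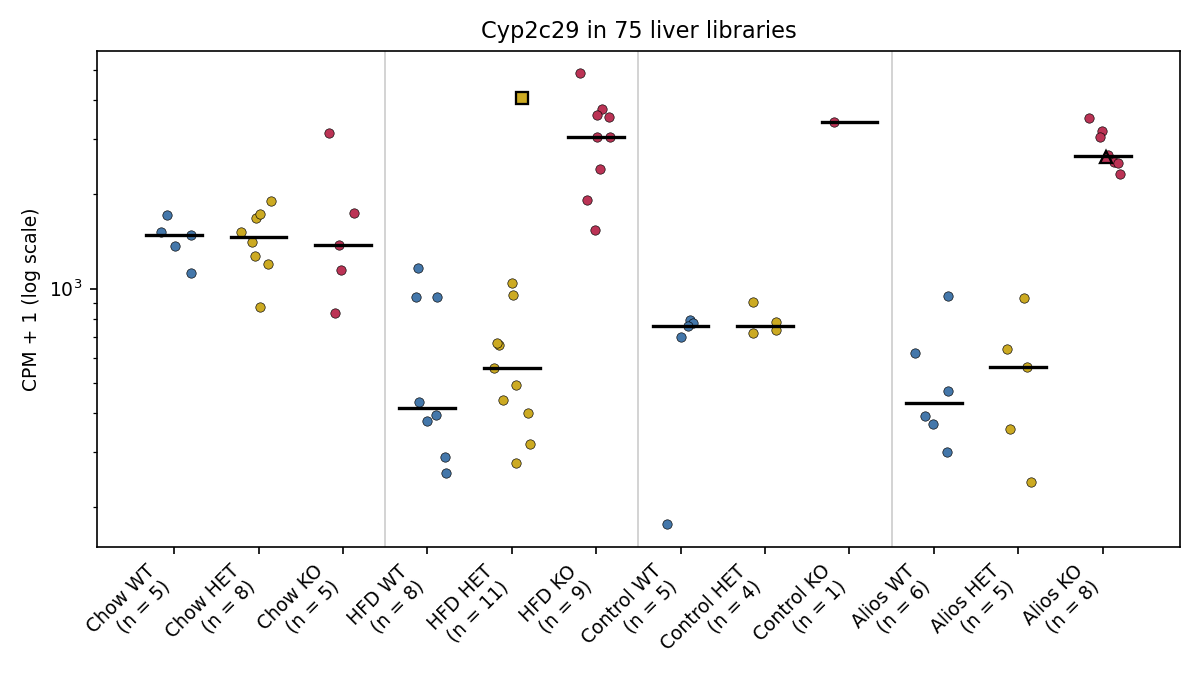
Cyp2c29 in the 75 liver libraries, as CPM + 1 on a log axis, by diet and genotype, with bars at group medians. The square is library HFD HET 8 at 4056 CPM and the triangle Alios KO library 8. On HFD and Alios the KO libraries lie above every WT library, and on chow the KO range of 835 to 3140 CPM encloses the WT range.

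The other Cyp2 genes of the chromosome 7 cluster gave no call in the contrasts in which Cyp2b10 was high. Of 10 listed 5 were tested, and edgeR called none between KO and WT livers on chow, HFD or Alios (DESeq2 called 0 as well, and 0, 1 and 1 had an unadjusted p under 0.05). Between HFD and chow in HET livers, where 14.2% of all genes were called, 1 rose and 3 fell. Cyp2a22 went from 14.7 ± 10.6 to 37.9 ± 23.4 CPM (edgeR adjusted p = 0.039), while Cyp2f2, a P450 of periportal hepatocytes and airway club cells, went from 1495 ± 200.9 to 893.2 ± 220.8 CPM (edgeR adjusted p = 0.0008). Cyp2a4 and Cyp2a5 fell with edgeR adjusted p of 0.044 and 0.047, calls that were lost with no filter on low counts, with the range of mouse numbers as a covariate and with all 12 groups fitted. The Cyp2a22 call was lost with DESeq2 and with that covariate. Of 225 genes with a row that lie between Cyp2b9 and Pepd, 105 were tested on chow and HFD and 111 on Alios. In KO against WT livers 4 were higher (Tyrobp, Fxyd5, Plekhg2 and Nfkbib) and 1 lower (Ech1) on chow, 0 higher and 1 lower (Lgals4) on HFD and 0 in either direction on Alios, where 3.4%, 1.72% and 0.224% of all genes were called. On Alios 4 of the 111 were higher and 6 lower at an unadjusted edgeR p under 0.05, a threshold for which the share of all genes is not given here. DESeq2 called 0.

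The rise of Cyp2b9 and Cyp2b13 on HFD was set beside the sex-biased genes of liver. In HET livers 2 of 14 tested female-biased genes outside Cyp2b were higher on HFD and 8 lower, with a median log2 difference of -0.74, where 14.2% of all genes were called. Hao2, a peroxisomal hydroxyacid oxidase, was higher (1.13 ± 1.21 to 5.86 ± 4.18 CPM, edgeR adjusted p = 0.0021), as was the peroxisomal transporter Abcd2. Cyp2c40 fell from 153.7 ± 33.6 to 92.0 ± 13.7 CPM (edgeR adjusted p = 0.0003), and Cyp3a41b, Cyp2c69 and Atp6v0d2 fell too. Of 28 tested male-biased genes 0 were higher and 16 lower, with a median of -0.77. Mup11, a major urinary protein, fell from 1915 ± 1037 to 305.2 ± 210.4 CPM (edgeR adjusted p = 0.00035) and the fatty acid hydroxylase Cyp4a12b from 171.4 ± 56.9 to 48.5 ± 29.5 CPM (edgeR adjusted p = 1.6e-05). Mup genes have near-identical copies and their values are uncertain. In WT livers, where 1.87% of all genes were called, 1 of 14 female-biased genes was higher and 1 lower, and 0 of 28 male-biased genes were higher and 6 lower.

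Between KO and WT livers edgeR called none of these sex-biased genes on chow, HFD or Alios. At an unadjusted edgeR p under 0.05, 0 female-biased genes were higher and 3 lower on chow, 2 and 4 on HFD, and 2 and 9 on Alios. Of the male-biased genes 1 was higher and 1 lower on chow, 9 and 0 on HFD, and 12 and 0 on Alios. The share of all genes at that threshold is not given here, so these counts are descriptions. DESeq2 called 1, 1 and 0 female-biased genes, all lower. It called 1 male-biased gene lower on chow, 3 higher on HFD and 2 higher on Alios. Among all genes DESeq2 called 534 on chow, 283 on HFD and 69 on Alios, in either direction. The female-biased list had medians of -0.27, -0.46 and -0.79 and the male-biased list of 0.06, 0.42 and 0.60 on the 3 diets, where the medians of all genes were 0.006, -0.002 and -0.008. The CAR and PXR target list, which shares some genes with the others, mostly fell among its calls on HFD in HET livers: 1 of 37 rose (the deiodinase Dio1) and 12 fell, among them the carboxylesterase Ces2a (353.5 ± 45.4 to 102.4 ± 45.3 CPM, edgeR adjusted p = 3.8e-07) and the glutathione transferase Gsta2 (67.0 ± 17.1 to 16.4 ± 6.67 CPM, edgeR adjusted p = 3.8e-05).

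In chow KO livers markers of macrophages were higher. The macrophage markers summed to a median of 1610 CPM in KO (up to 2384) and 457.9 in WT (up to 807.1), with 9 of 12 called higher, where 3.4% of all genes were called. The hepatocyte markers summed to 77340 to 151300 CPM in KO and 135000 to 166000 in WT, which overlap, and edgeR and DESeq2 called 0 of 11 (1 had an unadjusted p under 0.05). KO libraries 2, 3 and 5, with hepatocyte sums of 77340, 107500 and 83780 CPM, held the 3 lowest Cyp2b10 levels of the group (15.1, 20.5 and 18.8 CPM). KO libraries 1 and 4, at 147400 and 151300 CPM, held 27.6 and 74.6 CPM. The part of these values in the chow Cyp2b levels was not tested. The number of calls on chow moved with the libraries fitted: edgeR called 1 gene in all when fitted on only those WT and KO libraries, 22 without KO library 2 and 1055 without KO library 4. On HFD edgeR called 0 of 12 macrophage markers between KO and WT (DESeq2 too called 0, and 0 had an unadjusted p under 0.05) and the hepatocyte sums overlapped (127500 to 172300 in KO and 114900 to 178200 in WT). There 4 of 10 stellate cell markers were lower in KO (Col1a1, Col1a2, Col3a1 and Pdgfrb), against 1.72% of all genes called, and their part in the Cyp2b levels was not tested.

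Over the means of the 12 liver groups, the genes most like each member were found by Pearson's r of log2(CPM + 1) among 11364 genes. The groups share normalisation and the Control KO mean is 1 library, so these are descriptions. Most like Cyp2b10 were Cyp2c29 (r = 0.919), Pdzd11 (0.911), the glutamine tRNA ligase Qars (0.91), the P450 Cyp2d40 (0.889) and Adrb3, a beta-adrenergic receptor (0.875). Cyp2c29 spanned 515.0 CPM in Alios WT to 3409 in Control KO, while Qars spanned only 58.8 to 65.4 CPM. Most like Cyp2b9 were Mamdc2 (0.943), the adducin Add1 (0.918), Cyp2b13 (0.911), the nuclear pore gene Ndc1 (0.911) and Gprc5b (0.91), which went from 0.573 CPM in chow KO to 11.5 in HFD WT. Most like Cyp2b13 were Stab2, a scavenger receptor of sinusoidal endothelium (0.965), Cyp2b9 (0.911), Mamdc2 (0.863), the chromatin remodeller Smarca4 (0.856) and Spg20 (0.855). Without HFD HET library 8, 4 of each 5 remained among the 5 most alike: Adrb3, Ndc1 and Spg20 gave way to Gtf2h3, Tenm3 and Pcx.

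In gonadal adipose tissue the family was at the margin of detection. There were 45 libraries, with group sizes of 4, 8 and 5 (WT, HET, KO) on chow and of 8, 11 and 9 on HFD. Cyp2b10 ran from 0 to 10.1 CPM, with group medians between 0.486 and 1.12 CPM. Between KO and WT it differed by -0.44 ± 1.02 on the log2 scale on chow (edgeR adjusted p = 0.8) and by 1.12 ± 0.75 on HFD (edgeR adjusted p = 0.63), where 15.0% and 0.0344% of the 14536 genes tested were called. Cyp2b9 differed by -0.16 ± 1.79 on chow (edgeR adjusted p = 0.96) and by -4.16 ± 1.12 on HFD (edgeR adjusted p = 0.24). The HFD value rests on WT library 6, at 108.3 CPM, since the group medians were 0.382 CPM in KO and 0.869 in WT. Without that library the difference was -0.51 (edgeR adjusted p = 0.94), a fit added after the data had been seen. Cyp2b13 had too few reads to be tested.

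In 3 adipose libraries high Cyp2b values stood beside high hepatocyte marker sums. HFD WT library 6 held Cyp2b9 at 108.3 and Cyp2b13 at 11.7 CPM, with hepatocyte markers summing to 59940 CPM and Nr1i3 at 21.9 CPM. The group median of that sum was 1091 CPM. HFD HET library 2 held Cyp2b9 at 26.2 CPM with a sum of 7557, and HFD KO library 3 held Cyp2b10 at 10.1 CPM with a sum of 11550. Other raised Cyp2b10 values did not go with such sums: HFD HET library 7 held 4.10 CPM with a sum of 242.4, and HFD WT library 8 held 2.32 CPM with a sum of 295.4. The part of the hepatocyte transcripts in the adipose values was not tested.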

How the data were processed

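RNA from liver (75 libraries) and gonadal adipose tissue (45) was sequenced as stranded single-end reads, per the labels' protocols. The authors deposited whole-number read counts per Ensembl gene for each tissue. Per the submitters' processing notes, STAR 2.5.1b, featureCounts 1.5 and GRCm38.p5 were used. For the strand setting and for reads that match several genes, the choice made is not given in the sources used here. Among the adipose columns, 1 that matches no sample label was not used, and a labelled adipose chow WT sample 1 was not analysed here.

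Counts were tested with edgeR 4.0.16 (R 4.3.3), by quasi-likelihood tests with TMM scaling and Benjamini-Hochberg adjustment over all genes kept by filterByExpr (minimum count 10, minimum total 15), with a call at an adjusted p under 0.05. Chow and HFD livers (6 groups), Control and Alios livers, and adipose tissue were fitted separately. Standard errors are the log2 difference over the root of F. CPM levels used TMM factors over all libraries of a tissue. Relations used log2(CPM + 1), with exact permutation or 100000 resamples. Intervals and the 3-read limits cover counting error only. Alternatives included DESeq2 1.42.0, other filters and scalings, a block and left-out libraries. Leaving HFD HET library 8 out of the relations and the lists of most alike genes, and adipose HFD WT library 6 out of its contrast, was chosen after seeing the data. On simulated counts with real library sizes the HFD against chow HET fit called 85% of genes changed 2-fold and 99% of those changed 4-fold. It made 5 false calls. The Alios against Control HET fit called 81% and 94% and made 21 false calls. The simulated counts held many genes made to change, which lets more false calls pass the adjustment. These false calls therefore give no rate for the 22 genes called in the real data. Changed genes had a pooled mean of at least 1 CPM, so these rates do not carry over to genes as low and variable as the members on chow.

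The members and all gene lists were chosen with earlier results of these data known. Named genes were the 3 members, Pepd, Nr1i3, Nr1i2, Por, Alas1, Egfr, the other Cyp2b genes, up to 5 called genes per list and comparison by smallest adjusted p, and the 5 genes most like each member over the 12 liver groups. A gene so named in one comparison is also given in others.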

Additional observations from a re-analysis of the deposited data

Results flagged for a closer look

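Of 45 groups of 4 to 10 libraries examined for a single extreme value, 15 were singled out, 9 of them in liver. For normally distributed values chance alone singles out about 1 group in 20. Many of these CPM values are low and skewed towards high values, and the 3 genes of the same mice count as separate groups. The 15 are therefore not read as an excess over chance. Each value below was the highest of its group and far from the next. Cyp2b10 in liver stood apart in chow HET library 8 (21.53 CPM), chow KO library 4 (74.63 CPM) and Control WT library 3 (6.251 CPM). Cyp2b9 in liver stood apart in chow HET library 5 (43.29 CPM), chow KO library 4 (13.07 CPM), Control WT library 5 (246.3 CPM) and Alios KO library 2 (38.24 CPM). Cyp2b13 in liver stood apart in chow HET library 5 (4.479 CPM) and Control WT library 5 (21.12 CPM), the same 2 mice as for Cyp2b9. In gonadal adipose tissue Cyp2b10 stood apart in HFD KO library 3 (10.06 CPM). Cyp2b9 did so in chow HET library 7 (0.5593 CPM), HFD WT library 6 (108.3 CPM) and HFD KO library 3 (3.482 CPM). Cyp2b13 did so in chow WT library 5 (0.1648 CPM, 1 read) and HFD WT library 6 (11.66 CPM). Groups of more than 10 libraries, HFD HET among them, were not examined in this way.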

How the results depend on the processing

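The rise of Cyp2b9 and Cyp2b13 on HFD in HET livers kept its direction and its call in all 9 alternative fits and at the stricter threshold of 0.01, with adjusted p from 5.1e-09 (DESeq2) to 0.00024 (replicate block) for Cyp2b9 and from 6.6e-10 to 0.00024 for Cyp2b13. These fits reuse the same libraries, so their adjusted p values are no more independent support than those of the main fit. Without HFD HET library 8, Cyp2b10 went from 1.18 to -1.501 (adjusted p 0.06) between HFD and chow in HET, and from 3.22 to 0.541 between HET and WT on HFD. With the replicate block, Cyp2b10 differed by -1.99 between HFD and chow in WT and Cyp2b9 by 0.188 between Alios and Control in HET, and Cyp2b9 in adipose KO against WT on HFD went from -4.159 to -1.572 (edgeR adjusted p = 0.75). Leaving out 1 library at a time gave -5.14 to -1.592 for Cyp2b9 in KO against WT on chow. Between Alios and Control in HET it gave -0.427 to 2.522 for Cyp2b10, -0.614 to 0.265 for Cyp2b9 and -0.084 to 1.007 for Cyp2b13. In adipose KO against WT on chow it gave -0.861 to 0.502 for Cyp2b10 and -1.591 to 0.484 for Cyp2b9. Of the 18 relations, 5 passed (Alios WT included), 7 did so without HFD HET library 8 and 1 without the 2 farthest mice, where Cyp2b10 with Cyp2b9 became -0.68 in HFD KO and -0.29 in Alios KO, and Cyp2b10 with Cyp2b13 -0.18 in HFD KO. The cause of these changes was not tested.

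Counts of genes called moved more. KO against WT on chow (3.4% of genes) went to 1 when only the 2 groups were fitted, 209 with the block, 617 with all 12 groups, 79 at 0.01, and 22 (without KO library 2) to 1055 (without KO library 4) with 1 library left out. On HFD 190 went to 80 and 15 (only the 2 groups, 0.01). On Alios 26 went to 69 with DESeq2, 40 with RLE size factors, 53 with only the 2 groups, 8 with the block, 52 with all 12 groups and 9 at 0.01. HFD against chow in WT went from 207 to 82 (only the 2 groups), 100 (block), 29 (0.01), 48 to 188 without 1 chow WT library and 216 without HFD HET library 8; in HET from 1574 to 769 (block) and 660 (0.01). Alios against Control in HET went from 22 to 71 with DESeq2, 4 with the block, 10 without Alios KO library 8, 0 with only the 2 groups (edgeR, 1429 genes at an unadjusted p under 0.05), 0 at 0.01, and 0 to 50 with 1 library left out.

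Of 98 calls of named list genes, 37 held under every alternative. With the block, edgeR's adjusted p rose past 0.05 for Slco1a4 on chow (0.051) and Alios (0.08) in KO against WT and for Cyp2a4, Cyp2a5 and Cyp2a22 on HFD in HET. Same-numbered libraries did not deviate together in all pairs of any comparison (correlations from -0.31 to 0.35), so the numbers were not taken to pair mice. Low counts limit Cyp2b13 and the WT values of Cyp2b10 most.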
